A study of Caenorhabditis elegans with 2 samples.

Results

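Nuclear genes for subunits of cytochrome c oxidase were examined in a ChIP-seq map of the worm protein C34B4.2. The 6 genes were cox-4, cox-5A, cox-5B, cox-6A, cox-6B and cox-6C, out of 19973 protein-coding genes on the nuclear chromosomes. The set is not complete, since cox-7C, which RefSeq names as polypeptide VIIc of the oxidase, was counted in another list below. The 6 genes are a fixed list of this family that was chosen with the peak lists known. Each was read for peak summits between 1000 bp upstream and 200 bp downstream of any annotated transcript start. That span is called the promoter window here. The list includes cox-6C, which had no such summit. The presence, the signal and the rank of the summits were known when the genes were chosen. These values are therefore given as a description with no test. RefSeq describes cox-4, cox-5A and cox-6A as subunits 4, 5A and 6A of the oxidase and cox-6B as subunit VIb. It describes cox-5B and cox-6C by domains of the matching subunit families, so all 6 products fit the label.

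In ChIP-seq, DNA bound to a chosen protein is pulled down and sequenced, and peaks are stretches of the genome with an excess of such fragments. The worms were of strain OP552, which carries the unc-119(tm4063) allele and the transgene array wgIs552, from which C34B4.2 is made with GFP and FLAG at its C terminus. Both biological replicates shared this genotype, both were whole L1 larvae of mixed sex taken 6 h after synchronization by starvation following bleaching, and there was no second group. The descriptions say that an antibody to GFP was used, whereas the antibody label names C34B4.2, and the chromatin was broken by sonication. Whole larvae mix many cell types, so the tissue in which a site was occupied cannot be told apart, and RNA was not measured. A tagged extra copy reports on the fusion protein and not on the untagged one.

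Cytochrome c oxidase, or complex IV, is the last enzyme of the mitochondrial respiratory chain. It passes electrons from cytochrome c to oxygen and pumps protons across the inner membrane. Its catalytic core is encoded by mitochondrial DNA, while the surrounding subunits come from nuclear genes and are imported, so the enzyme needs both genomes. In the mammalian enzyme the COX5A and COX5B subunits sit on the matrix side, COX4, COX6A and COX6C span the membrane, and COX6B faces the intermembrane space.

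The DNA at 3 of the summits shows how differently the genes were placed. Each stretch holds 101 bases centred on the pooled summit, on the plus strand of the RefSeq WBcel235 genome, and all 3 genes are also on the plus strand. The site of cox-5A (chrIII:12905142-12905242), the strongest of the 6, and that of cox-6B (chrIII:2785974-2786074), the nearest below the authors' threshold, are shown with the letters ACGCA in capitals on either strand, so that TGCGT marks the other strand. In the site of cox-6A (chrIII:5080862-5080962), the capitals are instead the 37 bases that belong to a small nuclear RNA gene, F54D8.7, which is read from the other strand.
cox-5A: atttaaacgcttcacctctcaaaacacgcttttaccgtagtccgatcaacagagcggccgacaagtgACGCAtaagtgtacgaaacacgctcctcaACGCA
cox-6B: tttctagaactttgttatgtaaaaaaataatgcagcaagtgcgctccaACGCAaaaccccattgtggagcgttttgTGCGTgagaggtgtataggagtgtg
cox-6A: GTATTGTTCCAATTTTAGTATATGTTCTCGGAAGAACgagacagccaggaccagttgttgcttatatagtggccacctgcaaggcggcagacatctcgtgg
The cox-5A and cox-6B sites each held ACGCA at 2 places, and the cox-6A site held it at none. The base after the capitals of cox-6A is the first one upstream of the small nuclear RNA gene, and the summit lies 14 bp upstream of that gene's start.

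Of the 6 genes, 3 had a summit of the authors' thresholded list in the promoter window, namely cox-5A, cox-5B and cox-6A. Over all nuclear protein-coding genes 276 of 19973, or 1.38%, had one. The authors name that list as thresholded by the irreproducible discovery rate (IDR) method, which uses how repeatable peak ranks are between replicates. Its 267 peaks were ranks 1 to 267 of the pooled list by signal, and 264 of them overlapped a candidate in both replicates. A place on the list therefore does not show that a given site ranked alike in both. A summit from the 30000 pooled candidates, most of which are weak, was found at 5 of the 6 genes and at 38.1% of all genes. The same 5 genes had a candidate summit in each replicate's own list, which held for 21.8% of all genes. Since the 6 genes were selected on these lists, nothing is read from the distance to those shares. The gene with no candidate in any list was cox-6C.

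The highest pooled signals of the 6 were at cox-5A and cox-5B, in the authors' own unit, whose scale is unknown. Both are named after matrix-side subunits of the mammalian enzyme, and their place in the worm enzyme was not examined. In replicate 1 the second of them was nearly level with cox-6A, at 90.6 against 89.3. At cox-5A the signal was 196 in replicate 1, 224 in replicate 2 and 430 in the pooled list. Its rank was 16, 14 and 13 in these lists. cox-5A ranked highest of the 6 genes in each list, and 19 of the 7605 genes with a pooled candidate had a stronger one. At cox-5B the signal was 90.6 in replicate 1, 174 in replicate 2 and 256 in the pooled list, where it ranked 50. Replicate 2 placed cox-5B at rank 22 and replicate 1 at rank 105, so replicate 2 was the higher library there.

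Of cox-4, cox-6A and cox-6C, named after membrane-spanning subunits of the mammalian enzyme, only cox-6A passed the threshold. It did so in the lower part of the list. Its signal was 89.3 in replicate 1, 34.4 in replicate 2 and 119 in the pooled list. The pooled rank was 227 of 267, and the ranks in the replicates were 108 and 3792. In replicate 2 the cox-6A site was above the median candidate, which had a signal of 25.4, but far from the 267 strongest. At cox-4 the signal was 34.2 in replicate 1, 46.0 in replicate 2 and 79.4 in the pooled list, with ranks of 10517, 703 and 1329. The cox-4 candidate of replicate 1 lay close to that library's median of 31.1.

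At cox-6B the signal was 51.6 in replicate 1, 53.42 in replicate 2 and 96.1 in the pooled list. Its ranks were 1083, 363 and 448. Of the 6 genes, cox-6A at 119 was the nearest above the threshold and cox-6B at 96.1 the nearest below it. The lowest thresholded peak had 112. The pooled rank was 227 for cox-6A and 448 for cox-6B, and the thresholded list ended at rank 267. By the weaker of the replicates the order turns, since cox-6B had at least 51.6 in each and cox-6A only 34.4 in replicate 2.

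**Figure D1:**
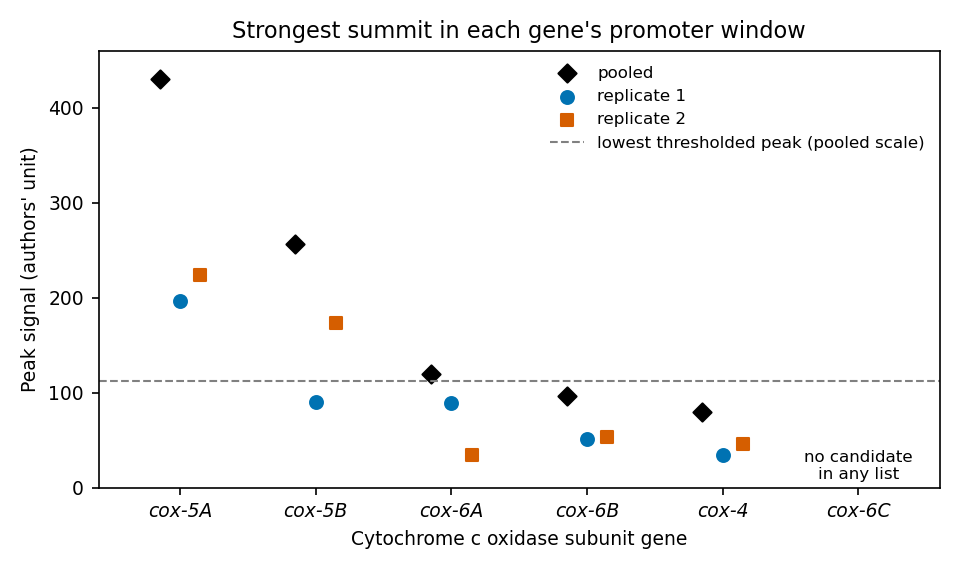
Signal of the strongest summit in the promoter window of each cytochrome c oxidase subunit gene, in the authors' unit, for the pooled list (diamonds), replicate 1 (circles) and replicate 2 (squares). The dashed line is the lowest thresholded peak at 112, which applies to the pooled diamonds only. cox-5A is high in every list, cox-6A is above the line with 89.3 in replicate 1 and 34.4 in replicate 2, and cox-6C has no point.

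The replicates differed most at cox-6A and cox-5B, in opposite directions. The log2 ratio of replicate 1 to replicate 2 was 1.38 at cox-6A and -0.94 at cox-5B. It was -0.43 at cox-4, -0.19 at cox-5A and -0.05 at cox-6B. Over the 264 thresholded peaks found in both replicates the median of this log2 ratio was 0.02 and its SD was 0.52. The size of the ratio was larger at cox-6A than at 257 of these 264 peaks, and larger at cox-5B than at 243 of them. At cox-4 it was larger than at 164, at cox-5A larger than at 85 and at cox-6B larger than at 23. Since cox-4 and cox-6B were not thresholded, the 11973 pooled candidates found in both replicates are given as well. Their median was 0.29 and their SD 0.43, but most pooled candidates are weak. Of the 267 candidates ranked next below the threshold, cox-6B included, 257 were found in both replicates. Their median was 0.32 and their SD 0.61, a wider spread. By the size of the log2 ratio the replicates were closest at cox-6B and cox-5A, and cox-4 lay between those and cox-5B. Against all 11973 candidates, both cox-4 and cox-6B lay below the median of 0.29, cox-4 by more than the SD of 0.43 and cox-6B by less. With 2 samples of 1 group no test of these differences was possible.

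**Figure D2:**
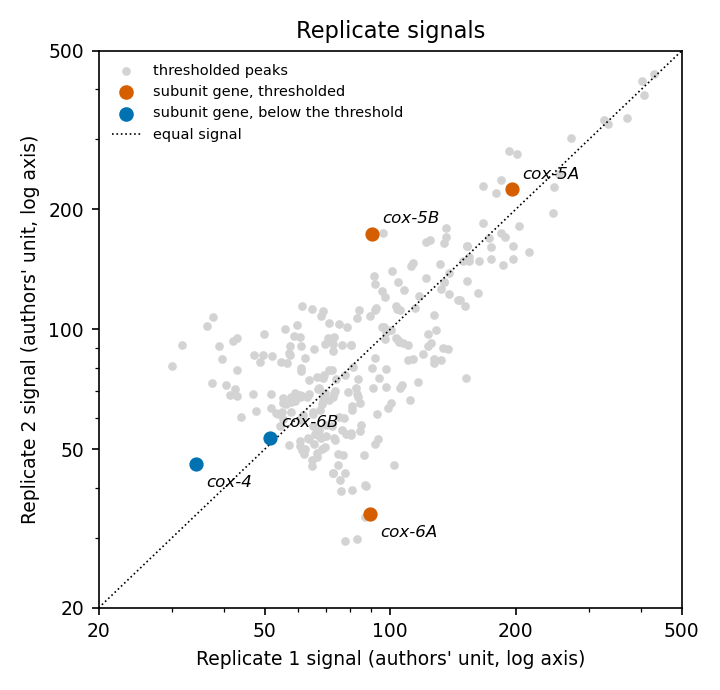
Signal in replicate 1 (horizontal, log axis) against replicate 2 (vertical, log axis), in the authors' unit, for the 264 thresholded peaks found in both (grey) and the 5 subunit genes with a candidate (coloured by whether the pooled peak was thresholded). cox-5A and cox-6B lie near the line of equal signal, cox-5B lies above it and cox-6A well below it, and the grey cloud has an SD of 0.52 on the log2 ratio.

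The pooled summits of cox-5A and cox-5B lay at most 311 bp upstream of any annotated start of these genes. Over the 276 genes with a thresholded summit, the median position was 247 bp upstream. On chromosome III, cox-5A (WBGene00012553, 12905491 to 12906619, plus strand) has 1 annotated start, and its peak of 188 bp spanned 12905105 to 12905292. The summit was 299 bp upstream of the start, 284 bp in replicate 1 and 298 bp in replicate 2. No other gene of any class had this summit in its window, and the nearest other start, that of the neuropeptide gene flp-14, was 5318 bp away. On chromosome I, cox-5B (WBGene00000371, 9788725 to 9790050, plus strand) has 2 starts that lie 284 bp apart, of which RefSeq lists only the second. The summit of its peak, at 9788513 to 9788882, was 27 bp upstream of the first start and 311 bp upstream of the second, and 64 and 31 bp upstream of the first in the replicates. Its window was shared only with the noncoding RNA genes F26E4.16 and F26E4.14, which lie inside cox-5B, at 523 and 548 bp downstream of the summit. The alpha tubulin gene tba-1, on the other strand, started 1074 bp from the summit, just beyond the window. Many worm messages are trans-spliced to a leader RNA, so an annotated start may be a splice site, and distances to the true start are uncertain.

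At cox-6A the summit lay nearer to another gene than to the subunit gene. cox-6A (WBGene00006519, chromosome III, 5081724 to 5082995, plus strand) has 3 annotated starts within 2 bp of each other, and the peak spanned 5080727 to 5081096. The summit was 812 bp upstream of cox-6A in the pooled list and in replicate 1, and 871 bp upstream in replicate 2. It was 14 bp upstream of F54D8.7 (WBGene00195000, 5080798 to 5080898), in the pooled list and in replicate 1, and 45 bp inside that gene in replicate 2. Of the 276 genes with a thresholded summit, only 22 (7.97%) had their nearest one more than 800 bp upstream. The median over all 276 genes was 247 bp upstream of the start. Replicate 1 held a further candidate in the cox-6A window, 607 bp upstream, with a signal of 37.7.

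Small nuclear RNA genes exist in many near-identical copies, so reads from F54D8.7 may have more than 1 possible place in the genome. Of the 166 words of 36 bases within 100 bp of the cox-6A summit, 108 (65.1%) occurred once in the genome, and the most frequent occurred 21 times. Within F54D8.7 itself 0 of 66 words occurred once. At cox-4, cox-5A, cox-5B and cox-6B all 166 words occurred once. Among 129 annotated small nuclear RNA genes, 20 others matched F54D8.7 at 90% or more of its bases, and 16 of them at every base. A thresholded summit lay within 200 bp of 1 of these 20, and a pooled candidate within 200 bp of 3. Most of the copies therefore had no listed summit near them. The sources used here give neither the read length nor how reads with several matches were placed, and the part of such reads in the cox-6A peak was not tested. In all, 10 thresholded summits, that of cox-6A included, lay within 200 bp of a small nuclear RNA gene. Such a summit lay in the window of 6 protein-coding genes, cox-6A among them, or 2.17% of the 276 genes with a thresholded summit. This annotated class is wider than the copies of F54D8.7. It includes the spliced leader RNA gene sls-2.4 and the gene sup-6, each of which lay near more than 1 of these summits.

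The candidates of cox-6B and cox-4 were shared as well. cox-6B (WBGene00022170, chromosome III, 2699663 to 2786859, plus strand) has 2 starts 86539 bp apart in Ensembl, and RefSeq lists only the downstream one, at 2786202. The pooled candidate, at 2785839 to 2786208, had its summit 178 bp upstream of that start. It was also 76 bp upstream of Y71H2AM.20, on the other strand, whose product RefSeq describes as an activator of protein phosphatase 2A. The summit of replicate 1 was 126 bp from cox-6B and 128 bp from Y71H2AM.20, about midway, while that of replicate 2 was 214 bp from cox-6B and 40 bp from Y71H2AM.20. The window of nduc-2, which encodes the C2 subunit of complex I, held the same pooled summit 828 bp upstream. At the far start of cox-6B there were only weak candidates, with 30.3 in replicate 1 and 25.8 in replicate 2, at 28 and 32 bp downstream, and none in the pooled list.

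The cox-4 gene (WBGene00012354, chromosome I, 13658171 to 13659128, minus strand) has 1 start, and its candidate at 13659395 to 13659764 had the summit 452 bp upstream of it. The replicates placed that summit 451 and 463 bp upstream. It fell 149 bp inside an annotated pseudogene, WBGene00012355, that is read from the other strand. A thresholded peak with a signal of 322 and rank 28 lay 4263 bp upstream of cox-4, but within 39 bp of the start of ints-4, a gene for a subunit of the Integrator complex that processes small nuclear RNAs, and not in the cox-4 window. The cox-6C gene (WBGene00017926, chromosome IV, 126731 to 127640, plus strand) had its nearest pooled summit 1920 bp downstream of the start, with a signal of 64.8, and its nearest thresholded summit 528190 bp away. The nearest candidate of replicate 2 lay 907 bp downstream of the cox-6C start, with a signal of 26.1. Depth is unknown, so a weak site at cox-6C would not have been detectable below the lowest listed signals of 39.5 in the pooled list, 24.7 in replicate 1 and 20.1 in replicate 2.

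**Figure D3:**
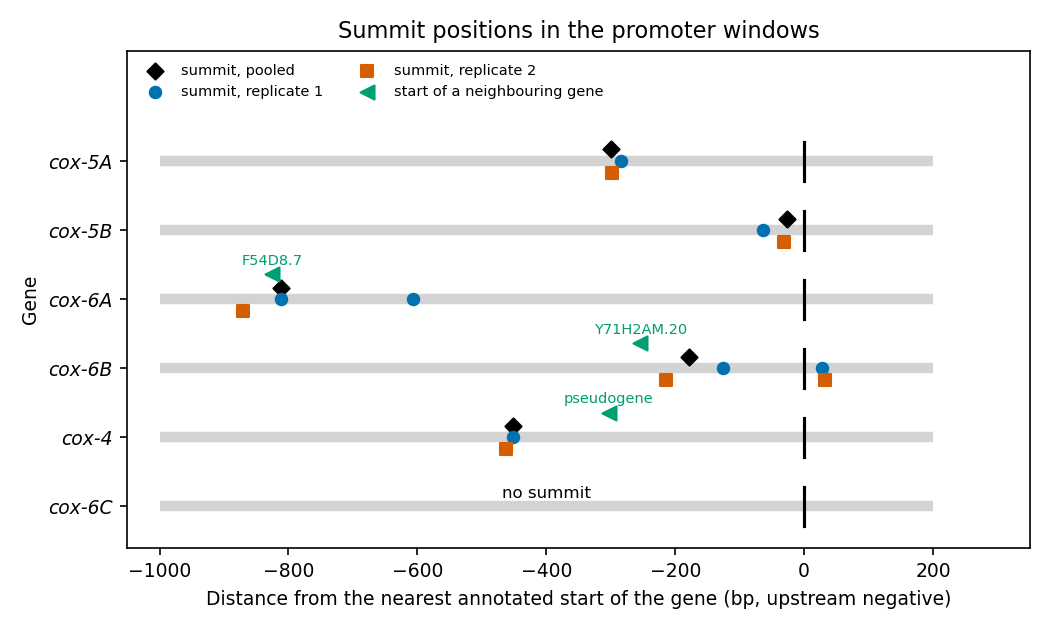
Position of every candidate summit in the promoter windows (grey bars) of the 6 genes, as distance in bp from the nearest annotated start of the gene (black tick, upstream negative), for the pooled list and each replicate. Green arrowheads mark the starts of F54D8.7, Y71H2AM.20 and the pseudogene WBGene00012355 and point in their reading direction. The pooled summit of cox-6A sits beside F54D8.7, 812 bp from cox-6A, with replicate summits at 812, 871 and 607 bp, those of cox-6B sit between the 2 divergent genes, and the replicate points of cox-6B downstream of the tick belong to its far start.

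The summit windows were also read for the words ACGCAG and GACGCA, which overlap in ACGCA and were found earlier in these same peaks. Within 50 bp of the summit on either strand, ACGCAG was present at cox-4 only and GACGCA at cox-5A only. Of the 267 thresholded summits 17.98% held ACGCAG and 19.5% held GACGCA, against 2.81% and 2.65% of the 101 bases upstream of all 19973 genes. Of all pooled candidate summits, 2.85% held ACGCAG and 2.98% held GACGCA. The core ACGCA, chosen after these values were seen, was present at cox-4, cox-5A, cox-5B and cox-6B but not at cox-6A. It occurred in 35.2% of thresholded summits, 9.96% of pooled candidates and 8.95% of promoters. The G and C share of the windows was 55.4% at cox-5B, 48.5% at cox-5A, 47.5% at cox-6A, 43.6% at cox-4 and 42.6% at cox-6B. Thresholded summits had 48.8% ± 7.49 (SD, n = 267) and all promoters 33.2% ± 8.25 (SD, n = 19973), so the windows of the thresholded summits were richer in G and C. The part of base composition in the word counts was not tested. A match here is a run of letters and not a binding site.

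Other genes of the respiratory chain were read in the same way, from lists chosen with results of these data known. The list for complex IV assembly and cytochrome c held 20 genes, with the subunit gene cox-7C among them. Of these, 2 (10%) had a thresholded summit, 9 (45%) had a pooled candidate and 11 had none. Over all nuclear protein-coding genes these shares were 1.38% and 38.1%, so the share with a pooled candidate was near that of all genes. The thresholded ones were sco-1, a homologue of the copper chaperones of complex IV, with a signal of 237 and the summit 199 bp upstream, and cyc-2.1, a cytochrome c gene, with 123 and 176 bp. At sco-1 the signal was 138 in replicate 1 and 89.3 in replicate 2, and at cyc-2.1 it was 69.0 and 66.3. The strongest below the threshold was cchl-1, a putative enzyme that attaches haem to cytochrome c, at 78.5. Its summit lay 193 bp downstream of the start, and no candidate of replicate 1 overlapped that peak. cox-7C, which RefSeq names as polypeptide VIIc of the oxidase and which is named here after its values were seen, had no candidate, as cox-6C had none.

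The ATP synthase list, of 12 genes, had 3 with a thresholded summit: atp-2 for the beta subunit at 791, atp-1 for the alpha subunit at 659 and atp-3 for the oligomycin sensitivity protein at 125. All 3 summits were shared, that of atp-2 with C34E10.10 and C34E10.12, that of atp-1 with mcrs-1 and that of atp-3 with F27C1.2. Complex I had 1 of 36, nduf-2.2 at 118, whose summit lay 810 bp upstream and was shared with dlc-1. Complex III had 1 of 10, T27E9.2 at 868, whose summit 544 bp upstream was shared with ant-1.1 and abcf-2. Complex II had 0 of 5. Against the 1.38% of all genes, the thresholded share was 25% for ATP synthase, 10% for complex III and 2.78% for complex I. Those of complex III and complex I each rest on 1 gene, and that of complex I lies near the share of all genes. A pooled candidate was found at 83.3% of the ATP synthase list, 80% of complex II, 70% of complex III and 69.4% of complex I. It was found at 83.3% of the oxidase subunit genes and 38.1% of all genes. The strongest below the threshold were ndua-2 of complex I at 98.3, atp-4 of ATP synthase at 91.9, sdha-1 of complex II at 86.2 and ucr-11 of complex III at 68.1. The summit of ndua-2 was shared with dnj-29 and fld-1, that of atp-4 with T05H4.11 and that of ucr-11 with dad-1 and tre-1. That of sdha-1 lay in no other protein-coding gene's window. The median signal over genes with a pooled candidate was 119 for the 5 oxidase subunit genes, 73.4 for ATP synthase, 61.9 for complex II, 57.0 for complex I, 49.8 for complex III and 48.5 for complex IV assembly and cytochrome c. Over all 7605 genes with a pooled candidate it was 52.2. These medians leave out the genes with none, and no list was tested against another. The 119 of the oxidase subunit genes is the value of cox-6A itself. That summit lay 14 bp upstream of F54D8.7 and 812 bp upstream of cox-6A.

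**Figure D4:**
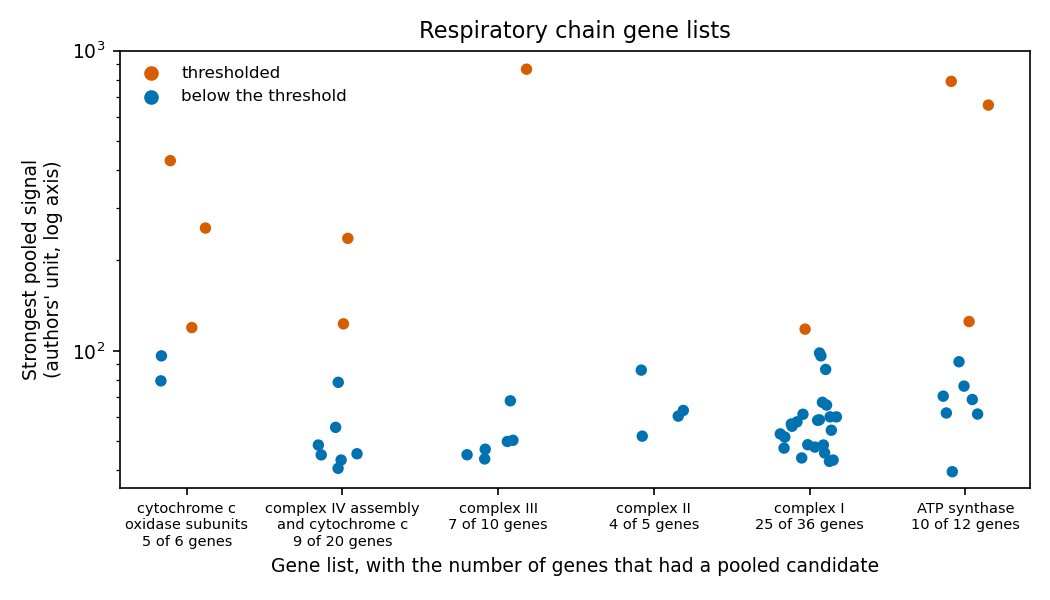
Strongest pooled signal in the promoter window (vertical, log axis, authors' unit) of each gene with a candidate, by respiratory chain list, with the number of such genes under each name. Orange points are thresholded and blue points are not. The oxidase subunits have 3 of 6 genes in orange, from 119 to 430, and the ATP synthase list has 3 of 12, up to 791.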

How the data were processed

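ChIP-seq of GFP-tagged C34B4.2 was measured in 2 biological replicates of 1 group. The authors deposited, for each replicate and for both pooled, 30000 candidate peaks, and 1 IDR-thresholded list of 267. Each peak carries a signal, deposited by the authors in a unit they do not name and never negative, and a deposited summit offset, counted in bases from the start of the peak. The ce11 lists were used; per the descriptions beside the files, the candidate lists also drew on a control file. The signal scale, the IDR threshold, the aligner and the caller were not given in the sources used here. Read depth is unknown, so no counting error could be given.

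Genes came from Ensembl release 115 on WBcel235, which is the sequence of ce11, and 0 peaks extended beyond the end of their chromosome. A summit was assigned to every gene whose window, 1000 bp upstream to 200 bp downstream of any transcript start, held it. A pooled candidate was matched to the strongest candidate of each replicate that overlapped it by 1 bp or more. Ranks follow the signal within a list. The window search was tested on simulated data. Identity to F54D8.7 was computed by alignment of annotated gene sequences, with the gene taken by its ID, since Ensembl gives that symbol to several genes. Python 3.11.15, pandas 2.3.3, numpy 2.4.6 and matplotlib 3.10.9 were used.

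The genes, lists and words were chosen with earlier results of these data known. The genes named are the 6 subunit genes, every protein-coding or small RNA gene whose window held their summit, and in each list the genes with a thresholded summit and the strongest below it. Neighbours named beyond these were picked with their values in view. Alternatives were run on the window, the starts, the assignment of summits, the threshold, the annotation and the choice of replicate.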

Additional observations from a re-analysis of the deposited data

How the results depend on the processing

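The number of subunit genes with a thresholded summit was 3 and ranged from 2 to 4 under the alternatives, while the share of all genes ranged from 0.746% to 3.03%. It was 2 with a window of 500 bp upstream and 100 bp downstream, which leaves out cox-6A and gives it no signal, with the upper part of the list by signal, and from the 267 strongest candidates of replicate 2 alone, which are not an IDR list; those of replicate 1 gave 3. It was 4, with cox-6B added, from the strongest 1000 pooled candidates, where the share of all genes was 3.03%. When each summit counted only for the nearest start of any gene class, a setting chosen after seeing the data, it was 2, as cox-6A was lost to F54D8.7. Under that setting the number with a pooled candidate fell from 5 to 2, with 31.8% of all genes, and the number with a candidate in both replicates from 5 to 3, with 16.7%. All other alternatives gave 4 or 5 for both of these numbers. The 3 genes kept under that setting included cox-6B. In replicate 2 it counted only through the weak candidate of 25.8 at its far start, since the other summit was nearer to Y71H2AM.20. The strongest signals were unchanged by the windows of 500 and 2000 bp wherever they gave a value. In single replicates they ran from 196 to 224 for cox-5A, 90.6 to 174 for cox-5B, 34.4 to 89.3 for cox-6A, 51.6 to 53.42 for cox-6B and 34.2 to 46.0 for cox-4. How the scale of a single replicate relates to the pooled one is not known. No paired analysis was possible because the series holds 1 group. The unknown depth and signal scale limit every value, and 2 samples allow no test.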

Other observations

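Thresholded peaks within 20000 bp of a subunit gene but outside its window were few. Near cox-5A there were 2, with signals of 116 and 115 at 14122 and 10306 bp from its start, and near cox-6A there was 1, with a signal of 120 at 12747 bp, at the start of C45G9.2. Near cox-5B, cox-6B and cox-6C there were none, and the peak near cox-4 was the one at ints-4.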
